A study of Mus musculus with 3 samples.

Results

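The 10 genes described here encode digestive enzymes of the intestinal brush border: *Lct*, *Sis*, *Mgam*, *Treh*, *Alpi*, *Anpep*, *Dpp4*, *Ace*, *Mep1a* and *Mep1b*. They were taken by name, as enzymes that finish the digestion of sugars, phosphate esters and peptides at the surface of absorptive cells, and all 10 were found among the 27998 genes of the data. Their transcripts were counted by single-cell RNA sequencing of sorted EpCAM+ epithelial cells from the mouse small intestine, EpCAM being a surface protein of epithelium. The study set mice that had lost *Apc* in their stem cells, with or without *Lef1*, beside a wild type.

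All 3 libraries came from C57BL/6 mice that had received 2 tamoxifen doses of 2 mg at an age of 7 to 8 weeks. Days are counted from the tamoxifen. The paper ties the time points to the criteria for euthanasia, giving days 29 and 21, with no separate reason for the WT day. The WT library was taken on day 21. The *LApc* library came from an *Lgr5*-EGFP-IRES-CreERT2;*Apc* fl/fl mouse and was taken on day 29, and the *LApcL* library came from an *Lgr5*-EGFP-IRES-CreERT2;*Apc* fl/fl;*Lef1* fl/fl mouse, taken on day 21. The Cre recombinase was driven from the *Lgr5* locus, which is active in crypt stem cells, so an enterocyte of these mice carries a deletion only where it descends from a recombined stem cell, and recombined and unrecombined enterocytes were not separated. By the methods, the *Lef1* fl/fl line had a mixed strain background and was backcrossed to C57BL/6 before use. With 1 library per genotype, genotype, mouse and library cannot be told apart, nor can day for *LApc*. Any strain background left in *LApcL* cannot be told apart either, and the kit version of each library was not stated. No test across samples was therefore possible. Each difference given below compares 2 libraries, and its 95% interval covers counting error only.

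Enterocytes leave the crypt, climb the villus and are shed at its tip, and on the way they build a brush border of microvilli that carries membrane-bound hydrolases. Lactase splits milk sugar, sucrase-isomaltase and maltase-glucoamylase release glucose from sucrose and starch fragments, and trehalase splits trehalose. Intestinal alkaline phosphatase removes phosphate groups, and a set of peptidases trims peptides to sizes that transporters can take up. Factors of the HNF1, HNF4, GATA and CDX families are known regulators of such genes in gut epithelium.

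The bases just upstream of the start site are shown for 3 of the genes as examples that hold the letters of these factors' textbook motifs. TATA motifs, which belong to none of these families, are marked as well. The windows were from RefSeq on build GRCm38.p6, on each gene's own strand, and capitals mark the motif matches.
*Lct*, chr1:128328319-128328568, minus strand: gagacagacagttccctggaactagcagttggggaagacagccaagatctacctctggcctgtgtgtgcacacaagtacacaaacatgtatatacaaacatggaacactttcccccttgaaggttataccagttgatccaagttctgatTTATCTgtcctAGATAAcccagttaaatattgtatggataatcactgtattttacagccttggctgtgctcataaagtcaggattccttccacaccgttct
*Sis*, chr3:72967864-72968113, minus strand: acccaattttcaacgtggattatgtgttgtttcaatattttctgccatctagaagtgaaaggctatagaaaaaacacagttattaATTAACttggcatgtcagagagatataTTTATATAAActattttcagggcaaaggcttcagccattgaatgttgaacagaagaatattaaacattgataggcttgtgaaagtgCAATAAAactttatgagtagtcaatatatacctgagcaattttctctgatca
*Treh*, chr9:44672983-44673232, plus strand: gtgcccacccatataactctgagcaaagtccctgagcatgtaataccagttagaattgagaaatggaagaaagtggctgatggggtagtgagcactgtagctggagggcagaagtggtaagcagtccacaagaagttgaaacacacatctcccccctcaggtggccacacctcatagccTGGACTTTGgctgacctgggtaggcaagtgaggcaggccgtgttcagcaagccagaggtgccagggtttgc
In *Lct*, the capitals are a pair of GATA motifs, AGATAA on either strand, at bases -101 to -96 and -90 to -85 from the start site. In *Sis*, they are an HNF1 half-site (GTTAAT) at -165 to -160, 2 overlapping TATA motifs (TATAAA) between -138 and -129, and a CDX motif (TTTATNG) at -52 to -46. In *Treh*, they are an HNF4 motif (CAAAGTCCA) at -71 to -63. Windows were found for 9 of the 10 genes, reaching 250 bases before and 50 after the start, and *Mep1b* is only named. Searched on both strands, the same letters stood in 11.2% (GATA), 7.10% (HNF1 half-site), 13.6% (TATA), 10.9% (CDX) and 0.475% (HNF4) of all 32851 promoters of that length. The HNF4 letters were also in the *Alpi* window, at -19 to -11. GATA letters were also in the *Mgam* and *Dpp4* windows, and CDX letters in those of *Alpi*, *Dpp4* and *Mep1a*. TATA letters were in those of *Mgam*, *Alpi*, *Dpp4* and *Ace*, and *Anpep* had no match. A match describes letters only, and no binding was measured.

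The targeted genes were read first. Levels are given as CPM, the UMIs (unique molecular identifiers, a tag given to each captured RNA molecule) of a gene scaled to a total of 1e6. *Apc* measured 16.6, 23.7 and 32.5 CPM and *Lef1* 0.124, 3.84 and 3.00 CPM over all kept cells of WT, *LApc* and *LApcL*. In the enterocyte-like cells described below *Lef1* was counted 1, 4 and 8 times in all and *Apc* had 19.8, 17.4 and 20.8 CPM. In the *Clu*-led cluster described at the end, which was nearly absent from WT, *Lef1* stood at 21.7 CPM in *LApc* and 3.52 CPM in *LApcL*. Counts of 3′ ends need not fall in the floxed exons, so these levels do not check either deletion. Of 11453 barcodes in WT, 13214 in *LApc* and 17388 in *LApcL*, with median depths of 9965, 5582 and 10333 UMIs, 10139, 9602 and 14395 were kept as cells. The *LApc* library was the shallowest and 17.7% of its barcodes exceeded 20% mitochondrial UMIs, against 0.541% in WT and 2.38% in *LApcL*. These barcodes, 62 in WT, 2342 in *LApc* and 413 in *LApcL*, held the 10 enzymes at a summed 8104, 5927 and 3839 CPM. They were left out before cells were classed, most of them from *LApc*, and what they would have added to the enterocyte classes was not tested. Between 1.87% and 2.52% of the smaller library's barcodes were also present in another library.

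Cell classes were rebuilt, with the 10 enzyme genes left out of the clustering. The enterocyte-like class joined a *Reg1*-led cluster, in which 4 of 10 enterocyte markers were raised but none was among its 10 leading genes, and an *Apoa4*-led cluster, in which all 10 were raised. It held 2034 (WT), 2813 (*LApc*) and 1423 (*LApcL*) cells, or 20.1%, 29.3% and 9.89% of the kept cells. An ileal enterocyte-like class led by *Fabp6*, the bile acid binding protein of the distal small intestine, held 797, 777 and 342 cells and raised all 7 ileal markers. *Lct* and *Ace* were themselves among the leading genes of the *Apoa4*-led cluster and *Mep1a* among those of the ileal cluster. Leading genes were read from the same cells after clustering, so the height of these enzymes there is no separate result. A 3′ UMI count carries no gene length term, so UMIs of different genes could be set side by side, though capture may differ between genes.

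The 10 enzymes together made up a small part of the enterocyte transcriptome, and it was smaller in *LApcL* cells. Their summed level in enterocyte-like cells was 4303 CPM in WT, 4967 for *LApc* and 3034 CPM for *LApcL*. The sum was therefore 1.15-fold higher in *LApc* than in WT, and on the log2 scale *LApcL* stood at -0.50 (-0.52 to -0.49) against WT and at -0.71 (-0.73 to -0.69) against *LApc*. The gap to WT lay in the *Reg1*-led cells, whose sum was 2854, 3220 and 1491 CPM, more than in the *Apoa4*-led cells, whose sum was 7622, 8273 and 7080 CPM. In ileal enterocyte-like cells the sums were closer, at 4760, 4786 and 3910 CPM.

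After each cell was thinned to 3000 UMIs, so that depth did not set the count, the median enterocyte-like cell held UMIs of 5 of the 10 genes in WT, 5 in *LApc* and 3 in *LApcL*. Cells in which none was seen made up 1.67%, 1.44% and 9.21%. Without thinning the medians were 7, 7 and 6 genes. The share without any enzyme transcript was highest in *LApcL* also among the *Reg1*-led cells, at 2.11%, 2.44% and 13.7%, and was under 1% in the *Apoa4*-led cells of every library.

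**Figure D1:**
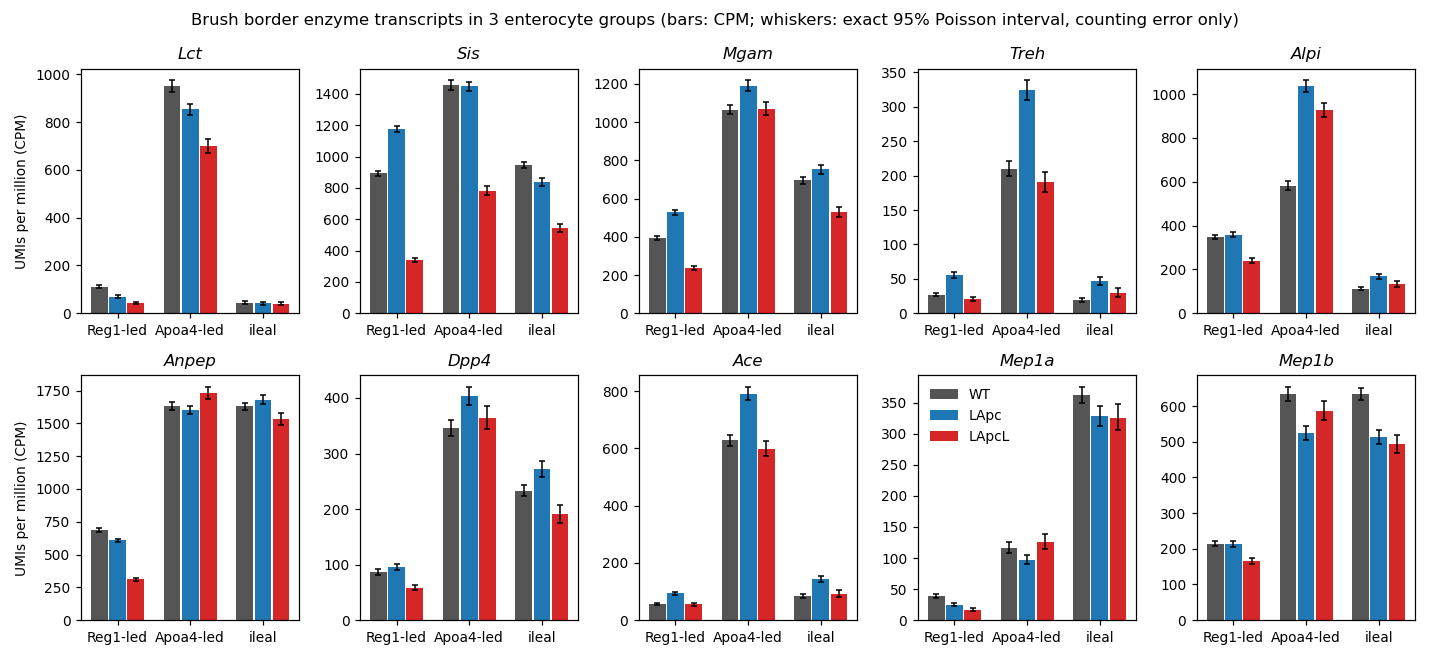
Level of each enzyme (CPM, linear axis from 0) in *Reg1*-led, *Apoa4*-led and ileal enterocyte-like cells of the WT, *LApc* and *LApcL* libraries, 1 library each; whiskers are exact 95% Poisson intervals for counting error only. *Lct*, *Treh* and *Ace* are tallest in *Apoa4*-led cells and *Mep1a* in ileal cells, and the *LApcL* bar of *Sis* is the shortest of the 3 in each group.

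*Sis* encodes sucrase-isomaltase, which splits sucrose and the branch points of starch, and it was the most abundant of the 10 in WT and *LApc* enterocyte-like cells. The gene spans chr3:72888557-72967863 on the minus strand. Its level was 1064 CPM (1050 to 1078) in WT, 1270 (1253 to 1287) for *LApc* and 463 CPM (451 to 475) for *LApcL*. *LApcL* was thus lowest, and the intervals did not overlap. The log2 ratio was 0.25 for *LApc* over WT, -1.20 for *LApcL* over WT and -1.46 for *LApcL* over *LApc*. In thinned cells *Sis* was seen in 81.4%, 82.8% and 51.1% of enterocyte-like cells, against 11.1%, 14.9% and 4.33% of goblet-like cells, a secretory class that should lack it. *Sis* supplied 24.7%, 25.6% and 15.3% of the UMIs of the 10 genes.

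The lower *Sis* level in *LApcL* was seen in every enterocyte group. In *Reg1*-led cells it was 893, 1175 and 341 CPM, in *Apoa4*-led cells 1458, 1448 and 782 CPM, and in ileal cells 945, 835 and 544 CPM. Of the 8 subclusters described below, *LApcL* stood under WT in 8, by log2 ratios from -2.12 to -0.52, and under *LApc* in 8, by -2.15 to -0.53. *Sis* was the only one of the 10 genes lower in *LApcL* than in WT in all 8, against 6.74% of 6800 genes.

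*Lct* encodes lactase, which is highest in suckling animals and persists at lower levels in adults. It spans chr1:128284756-128328318, minus strand, with 17 exons. In enterocyte-like cells it measured 366 CPM (358 to 375) in WT, 341 (332 to 350) for *LApc* and 224 CPM (215 to 232) for *LApcL*, and the *LApcL* value was again the lowest. Most of its transcripts sat in the *Apoa4*-led cells, with 952, 854 and 700 CPM, against 111, 69.7 and 41.8 CPM in *Reg1*-led cells. In ileal cells *Lct* was at 44.9, 41.9 and 40.2 CPM, where the intervals of the 3 libraries overlapped. Goblet-like cells held 19.04, 14.4 and 8.56 CPM of it, and the part of free RNA in the ileal level was not tested.

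*Mgam* encodes maltase-glucoamylase, the partner of sucrase-isomaltase in starch digestion, and spans chr6:40628831-40769123 on the plus strand. In enterocyte-like cells it was at 597 CPM (587 to 607) in WT, 757 (744 to 770) for *LApc* and 467 CPM (455 to 479) for *LApcL*. The order *LApc*, WT, *LApcL* held in *Reg1*-led cells, at 528, 392 and 236 CPM. In *Apoa4*-led cells WT and *LApcL* overlapped, at 1066 and 1071 CPM, while *LApc* had 1192 CPM. *Mgam* was also the member with the highest level in goblet-like cells, 74.5, 93.1 and 60.9 CPM.

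*Treh* encodes trehalase, which splits the sugar of fungi and insects, and spans chr9:44673233-44686305, plus strand. It was among the rarest members, with 82.7 CPM (78.8 to 86.7) in WT, 149 (143 to 154) for *LApc* and 67.5 CPM (63.1 to 72.3) for *LApcL*. *LApc* was highest in each enterocyte group, with 55.9 CPM against 27.0 CPM in WT among *Reg1*-led cells, 324 against 210.4 CPM among *Apoa4*-led cells, and 46.6 against 18.6 CPM among ileal cells. *LApcL* was under WT in enterocyte-like cells and above it in ileal cells, where it had 30.1 CPM. The 3′ end of *Treh* meets that of *Phldb1* on the other strand, which had 11.7, 7.13 and 10.2 CPM.

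*Alpi* encodes intestinal alkaline phosphatase and spans chr1:87098002-87101606 on the minus strand. Its level was 420.4 CPM (412 to 429) in WT, 592 (581 to 604) for *LApc* and 430.0 CPM (419 to 442) for *LApcL*. WT and *LApcL* overlapped and *LApc* stood above both. The 2 clusters of the class differed in opposite directions: in *Reg1*-led cells *LApcL* was below WT, with 240.5 against 349 CPM, and in *Apoa4*-led cells above it, with 927 against 583 CPM. *Alpi* was the only member that was highest neither in the *Pck1*-led nor in the *Saa1*-led subcluster described below.

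The peptidases start with *Anpep*, aminopeptidase N, which removes single residues from the amino end of peptides. It spans chr7:79821803-79861059, minus strand. Enterocyte-like cells held 972 CPM (959 to 986) in WT, 951 (936 to 965) for *LApc* and 704 CPM (690 to 719) for *LApcL*. Ileal cells held more, 1629, 1681 and 1530 CPM, and *Anpep* was the leading member there with 34.2%, 35.1% and 39.1% of the UMIs of the 10 genes. The lower *LApcL* value came from the *Reg1*-led cells, at 685, 607 and 312 CPM, whereas in *Apoa4*-led cells *LApcL* was the highest of the 3, at 1732 CPM against 1630.1 and 1601 CPM.

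*Dpp4* encodes dipeptidyl peptidase 4, which cuts after a proline and also inactivates the incretin hormones, and spans chr2:62330073-62412231, minus strand. It had 165 CPM (160 to 171) in WT, 202 (195 to 209) for *LApc* and 143 CPM (137 to 150) for *LApcL* enterocyte-like cells. *Ace* encodes angiotensin-converting enzyme, which releases dipeptides from the carboxyl end of peptides, and spans chr11:105967945-105989964, plus strand. It had 230.1 CPM (224 to 237), 335 CPM (326 to 343) and 206 CPM (198 to 214). Both genes therefore ran in the order *LApc*, WT, *LApcL* in these cells, and the intervals of neighbours in that order did not overlap. *LApcL* was above WT for *Dpp4* in *Apoa4*-led cells (365 against 345 CPM) and for *Ace* in ileal cells (92.8 against 84.6 CPM). It was below WT for both in *Reg1*-led cells, for *Dpp4* in ileal cells and for *Ace* in *Apoa4*-led cells.

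*Mep1a* and *Mep1b* encode the alpha and beta subunits of meprin, a metalloprotease, and *Mep1a* spans chr17:43474324-43502812, minus strand. In enterocyte-like cells *Mep1a* had 62.5 CPM (59.2 to 66.0) in WT, 50.004 (46.7 to 53.4) for *LApc* and 47.2 CPM (43.5 to 51.2) for *LApcL*. *LApc* and *LApcL* overlapped, and WT was above both. *Mep1b* had 342 CPM (334 to 350), 320.2 CPM (312 to 329) and 283 CPM (274 to 292), with *LApcL* lowest. In ileal cells *Mep1a* reached 362, 328 and 326 CPM and *Mep1b* 634, 513 and 493 CPM, and *LApc* and *LApcL* overlapped for both subunits.

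Setting the 2 clusters of the class side by side, all 10 enzymes were higher in *Apoa4*-led than in *Reg1*-led cells in each library, by 1.23- to 16.7-fold. The share of all genes higher in each library was not taken, so that count has no background beside it. A 2-fold higher level in all 3 libraries was met by 8 members, against 7.37% of the 6756 genes at 10 CPM or more in at least one of the groups compared. The steepest were *Ace*, 11.1-, 8.47- and 10.8-fold in WT, *LApc* and *LApcL*, and *Lct*, 8.59-, 12.2- and 16.7-fold. The exceptions were *Sis*, with 1.63-, 1.23- and 2.29-fold, and *Alpi*, with 1.67-, 2.90- and 3.85-fold. None of the 10 was 2-fold lower, against 4.66% of genes. The goblet markers also differed here: their summed level in *Apoa4*-led cells was 26904, 6835 and 7840.4 CPM, highest in WT, and the part of that in the levels of the enzymes was not tested.

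Ileal and non-ileal cells differed in which enzymes they carried more than in how much. *Mep1a* was 5.80-, 6.56- and 6.91-fold higher in ileal than in enterocyte-like cells, the 1 member past 2-fold in all 3 libraries, against 1.19% of 6631 genes. *Lct*, *Treh*, *Alpi* and *Ace* were 2-fold lower in ileal cells in every library, 4 of 10 against 1.69% of genes. *Lct* was 8.16-, 8.13- and 5.57-fold higher in enterocyte-like cells. *Anpep*, *Dpp4* and *Mep1b* were higher in ileal cells in each library by less, *Anpep* by 1.67-, 1.77- and 2.17-fold. *Sis* and *Mgam* did not keep 1 direction, *Sis* being lower in ileal cells of WT and *LApc* and higher in those of *LApcL*.

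**Figure D2:**
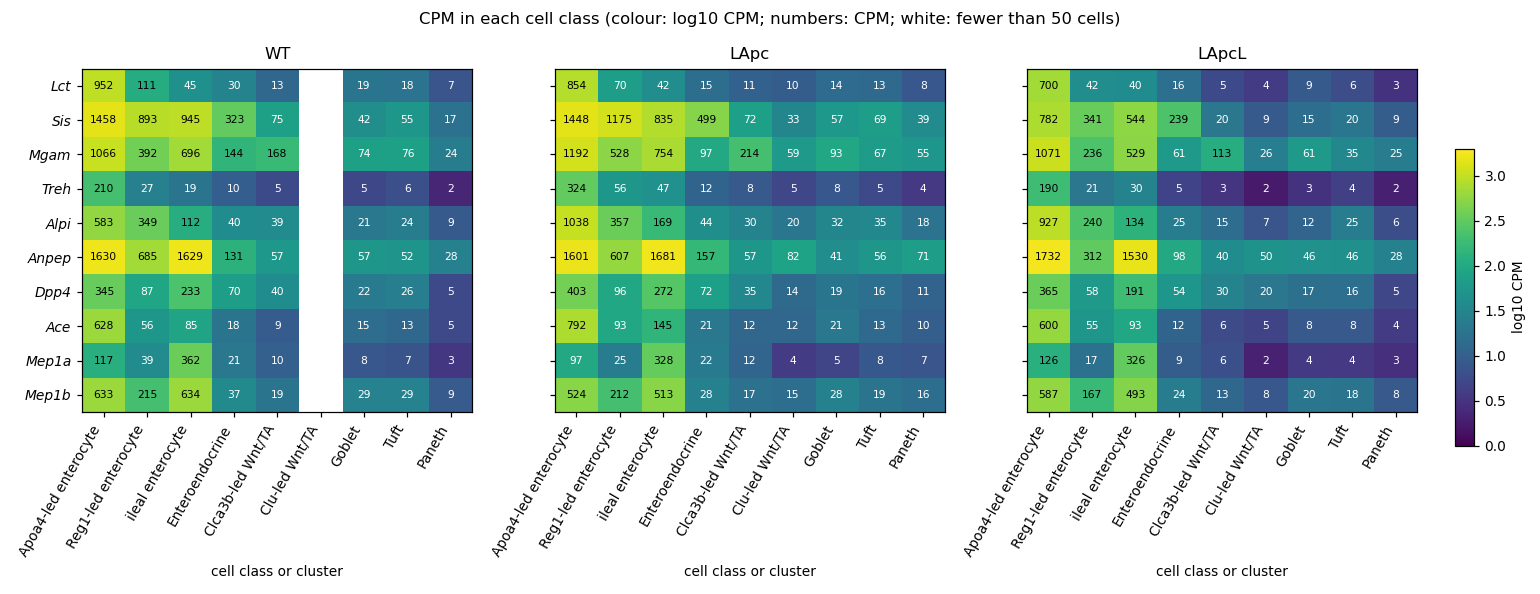
Level of each enzyme (number: CPM, colour: log10 of it) in 9 cell classes or clusters of the WT, *LApc* and *LApcL* libraries; white cells had fewer than 50 cells. The highest value of every gene stands in an enterocyte column, such as 952 CPM of *Lct* in *Apoa4*-led WT cells against 19.04 CPM in goblet-like WT cells.

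The enterocyte classes were divided further into 8 subclusters, each called by its leading gene. In each library *Lct*, *Sis*, *Mgam*, *Treh* and *Ace* were highest in the *Pck1*-led subcluster, of which 99.2% of cells came from the *Apoa4*-led cluster. It held 536, 758 and 317 cells, and its *Lct* level was 1120 CPM in WT, 1117 for *LApc* and 984 CPM for *LApcL*. *Anpep*, *Mep1a* and *Mep1b* were highest in the *Saa1*-led ileal subcluster, with 2463, 3409 and 2981 CPM of *Anpep*. *Dpp4* was shared between both: it was highest in the *Pck1*-led cells of WT (397 CPM) and *LApcL* (499 CPM) and, with overlapping intervals, in the *Saa1*-led (520.5 CPM) and *Pck1*-led (498 CPM) cells of *LApc*.

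*Alpi* had a pattern of its own. It was highest in the *Cybrd1*-led subcluster, whose leading genes include the iron transport genes *Cybrd1*, *Slc40a1* and *Slc11a2*, at 1563 CPM in WT, 1842 for *LApc* and 1848 CPM for *LApcL*. The next subcluster was far below in WT, at 493 CPM. In the same *Cybrd1*-led cells *Anpep* had 1084 CPM in WT, 429 for *LApc* and 269.9 CPM for *LApcL*. *Alpi* in the *2010109I03Rik*-led subcluster was 402 CPM in WT, 1278 for *LApc* and 971 CPM for *LApcL*. That subcluster had the highest *Apoa4* level of the 8 and held 108, 234 and 130 cells.

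Most members were lowest in the *Rbp7*-led or *Fgfbp1*-led subcluster, except *Sis* in *LApc* (218 CPM) and *LApcL* (63.8 CPM), which was lowest in the *2010109I03Rik*-led one. The summed level of the 10 was 1234, 1160 and 500.03 CPM in *Rbp7*-led and 1160, 1127 and 726 CPM in *Fgfbp1*-led cells, while the *Pck1*-led sum was 8634, 9813 and 8924 CPM. The *LApcL* sum was thus level with WT in the *Pck1*-led cells and at less than a log2 ratio of -1 in the *Adh1*-led (-1.17) and *Rbp7*-led (-1.30) cells, which make up most of the *Reg1*-led cluster.

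Enterocyte-like cells were also ordered by a villus score, the mean of 6 tip genes minus that of 6 base genes, and cut into 5 ranges. *Lct*, *Treh*, *Alpi* and *Ace* rose at each step in all 3 libraries, 4 of 10 against 0.885% of 7005 genes, but no member did so with a score without *Apoa4*, *Reg3b* and *Reg3g*, chosen after the data were seen. With that score all 10 except *Sis* stood higher in the top than in the bottom range of every library, whereas with the first score *Anpep* (0.91-fold) and *Mep1b* (0.96-fold) were also lower at the top in WT. The share of all genes higher at the top was not taken with either score, so that count has no background beside it. From the lowest to the highest range *Lct* rose 3.27-fold in WT, 8.60-fold in *LApc* and 6.39-fold in *LApcL*, and *Treh* 6.20-, 5.76- and 5.93-fold. *Sis* was lower at the top than at the bottom in all 3, 0.53-, 0.60- and 0.60-fold, as were 31.7% of genes. *Anpep* ran flat in WT, from 1083 to 989 CPM, and upward in *LApcL*, from 532 to 1158 CPM. The score's own genes differed between libraries: *Reg3b*, a base gene, had a log2 ratio of 2.11 and *Ada*, a tip gene, of 1.95 for *LApc* over WT, so the same range need not hold the same stage in each library. In all 5 ranges *Sis* was lower in *LApcL* than in WT, by log2 ratios from -1.47 to -0.82, and than in *LApc*, by -1.75 to -1.25.

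**Figure D3:**
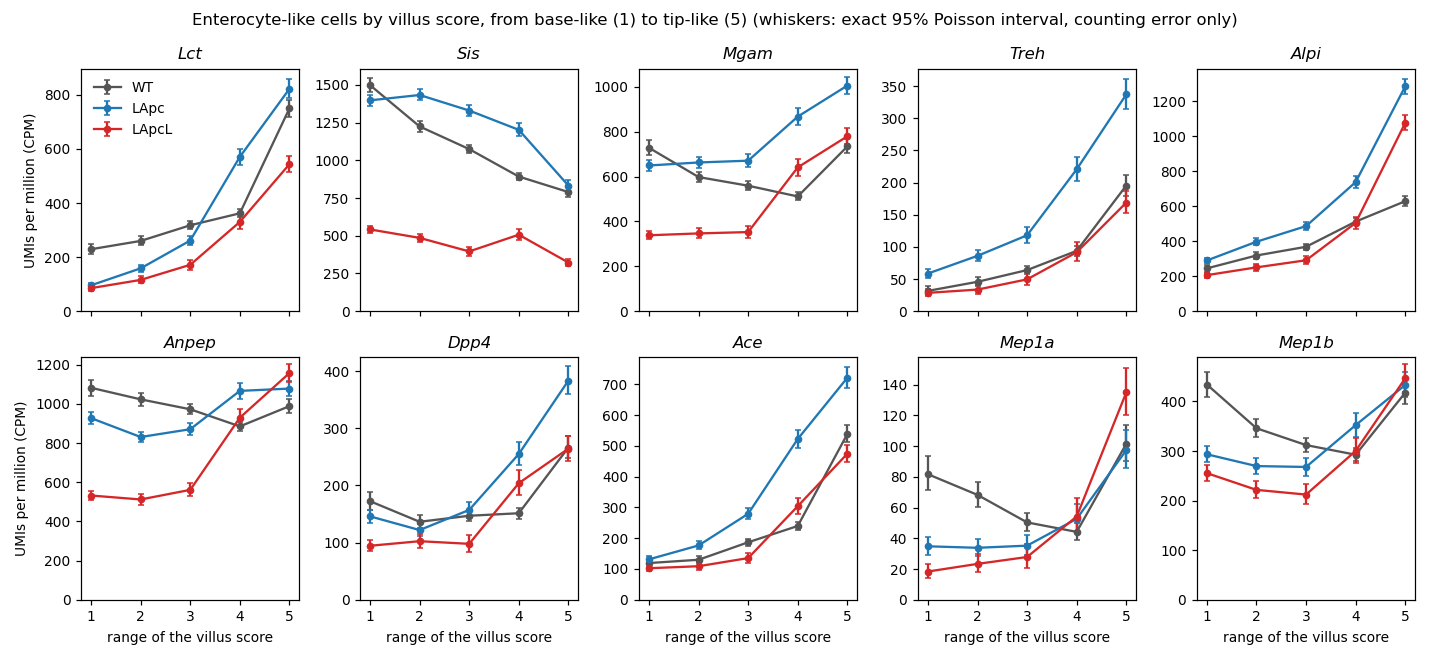
Level of each enzyme (CPM, axis from 0) in enterocyte-like cells cut into 5 ranges of the villus score, 1 for base-like and 5 for tip-like, 1 line per library; whiskers are exact 95% Poisson intervals for counting error only. *Lct*, *Treh*, *Alpi* and *Ace* climb in all 3 libraries, and *Sis* falls, with the *LApcL* line lowest throughout.

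Read as a comparison of *LApc* with WT, enterocyte-like cells had no member past 2-fold in either direction, while 2.57% of the 7049 genes were 2-fold higher and 1.69% 2-fold lower. The median log2 ratio of the 10 was 0.27, and that of all genes was -0.07. *Treh* (0.85), *Ace* (0.54) and *Alpi* (0.50) had the highest ratios and *Mep1a* (-0.32) the lowest. With a mitochondrial limit of 10% in place of 20%, these became 0.50, 0.16, 0.13 and -0.39, and *Lct* went from -0.10 to -0.70. In *Reg1*-led cells 1 member, *Treh*, was 2-fold higher at 1.05, against 2.09% of genes, and none 2-fold lower, against 1.2% of genes. In ileal cells *Treh* was again the only one 2-fold higher, at 1.32 (1.03 to 1.62), against 2.02% of genes, and none was 2-fold lower, against 1.38%. *Mgam*, *Treh* and *Ace* were higher in *LApc* in all 8 subclusters, 3 of 10 against 6.92% of the 6715 genes, though *Treh* rested on 3 UMIs in WT in the *Fgfbp1*-led cells.

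For *LApcL* over WT the ratios of 9 of the 10 members were below 0 in enterocyte-like cells, with a median of -0.32 against 0.01 over all genes, and *Alpi* was at 0.03 (-0.02 to 0.08), or -0.040 with median-of-ratios scaling and -0.20 with a 10% mitochondrial limit. A single member, *Sis*, was 2-fold lower, against 1.74% of 7175 genes, and none was 2-fold higher, against 2.02%. In *Reg1*-led cells 4 were 2-fold lower, against 1.89% of genes: *Lct* at -1.41, *Sis* at -1.39, *Mep1a* at -1.19 and *Anpep* at -1.13. None was 2-fold higher there, against 1.4%. In ileal cells no member passed 2-fold, against 5.26% of genes higher and 1.85% lower, and the lowest was *Sis* at -0.80 (-0.88 to -0.72). With doublets kept and cells clustered again, the ileal class took in more cells, 1618, 1722 and 959, and *Sis* was at -1.37 in it. *Sis* was the 1 member lower in all 8 subclusters, against 6.74% of 6800 genes.

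For *LApcL* over *LApc* the 10 ratios in enterocyte-like cells were below 0, with a median of -0.55 against 0.06 over all genes, except that *Mep1a*, at -0.08 (-0.24 to 0.07), could not be told from 0 and stood between 0.012 and 0.31 under 6 of 10 alternatives. *Lct*, at -0.61, was at -0.089 with a 10% mitochondrial limit. *Sis* (-1.46) and *Treh* (-1.14) were 2-fold lower, against 1.73% of 7172 genes, *Treh* falling short of it with a 10% mitochondrial limit (-0.97) and with subclusters weighted to the same mix (-0.87), and no member was 2-fold higher, against 2.5%. In *Reg1*-led cells *Sis* (-1.78), *Treh* (-1.44) and *Mgam* (-1.16) were 2-fold lower, against 1.98% of genes, and none higher, against 1.45%. In ileal cells none passed 2-fold, against 2.59% higher and 1.03% lower. *Sis*, *Mgam*, *Treh* and *Ace* were lower in all 8 subclusters, 4 of 10 against 6.41% of 6847 genes, though *Treh* rested on 3 UMIs in *LApcL* in the *Fgfbp1*-led cells. The comparisons share libraries and are not independent of each other.

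Some other markers moved with these values. The summed level of the 10 enterocyte markers in *Reg1*-led cells was 20943 CPM in WT, 33548 for *LApc* and 18268 CPM for *LApcL*. This sum ran in the same order as the enzyme sum. Not every marker did: *LApcL* was above WT for *Fabp1* (4662 against 4042 CPM), *Rbp2* (4116 against 3944 CPM) and *Apob* (272 against 223 CPM). *Apoa1* was highest in WT by little, at 4033 CPM against 4029 for *LApc*, and the rest kept the order. In ileal cells the marker sum was 15592, 28499 and 21516 CPM, with *LApcL* above WT. The Wnt/TA markers, genes of stem and dividing crypt cells, summed to 1317, 1038 and 1496 CPM in *Reg1*-led cells, but *Ptma* alone gave 1143, 917 and 1258 CPM of it. The single markers did not share an order: *Pcna* was at 32.7, 37.9 and 25.4 CPM, *Olfm4* at 1.71, 0.966 and 0.333 CPM and *Stmn1* at 87.9, 46.2 and 127 CPM. *LApcL* was also highest for *Notum* (0.205, 2.20 and 9.54 CPM), *Axin2* (7.85, 8.17 and 18.9 CPM) and *Top2a* (19.3, 10.7 and 31.1 CPM). It was not for *Lgr5* (2.32, 1.32 and 1.44 CPM), *Prox1* (0.615, 3.60 and 3.22 CPM) and *Mki67* (20.9, 9.49 and 20.9 CPM). In *Apoa4*-led and ileal cells *LApcL* was highest for *Notum*, *Axin2*, *Ptma*, *Stmn1*, *Top2a*, *Mki67* and *Prox1*. *Lgr5*, *Olfm4* and *Pcna* were not highest in *LApcL* there. *LApcL* was highest in goblet-like cells too, with *Notum* at 0.0441, 2.05 and 32.4 CPM and *Axin2* at 8.38, 9.42 and 42.2 CPM. Fewer mature cells and less RNA per cell cannot be told apart in a sum over a cluster. Immune markers stayed between 2.33 and 10.1 CPM in enterocyte-like cells. The part of these levels in the lower enzyme level was not tested, other than by giving the subclusters the same mix in each library, which left the enterocyte-like log2 ratio of *LApcL* over WT at -0.33, against -0.50 as found.

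**Figure D4:**
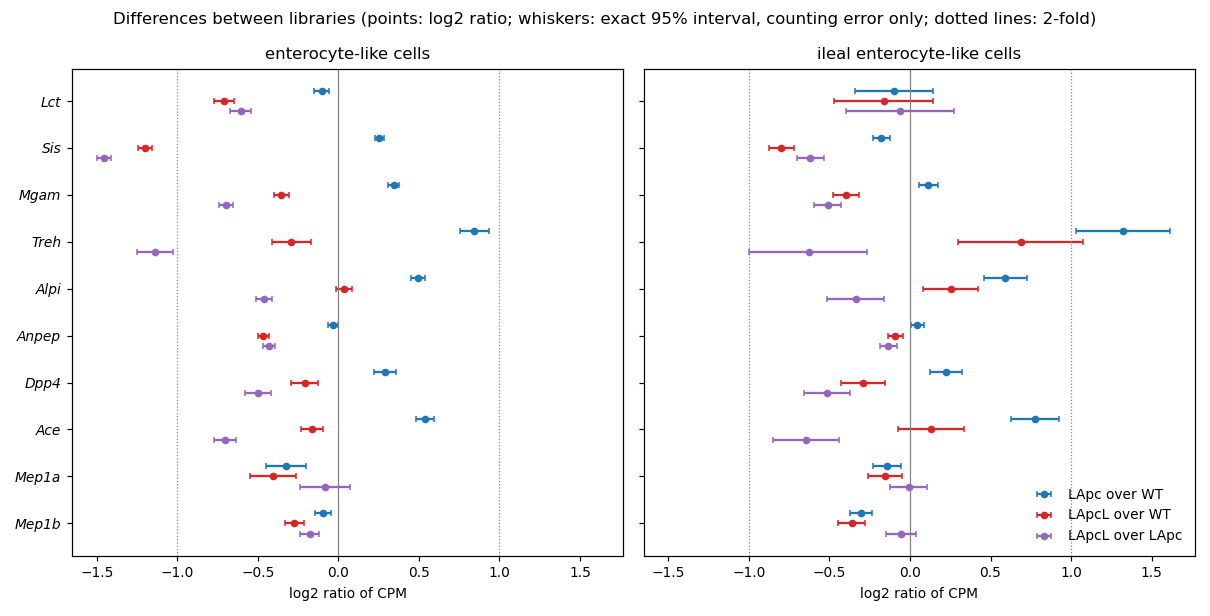
Log2 ratio of each enzyme between libraries in enterocyte-like (left) and ileal enterocyte-like (right) cells; points are ratios, whiskers exact 95% intervals for counting error only, dotted lines mark 2-fold. *Sis* in enterocyte-like cells lies beyond the lower line in both comparisons of *LApcL*, and *Treh* in ileal cells beyond the upper line for *LApc* over WT.

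**Figure D5:**
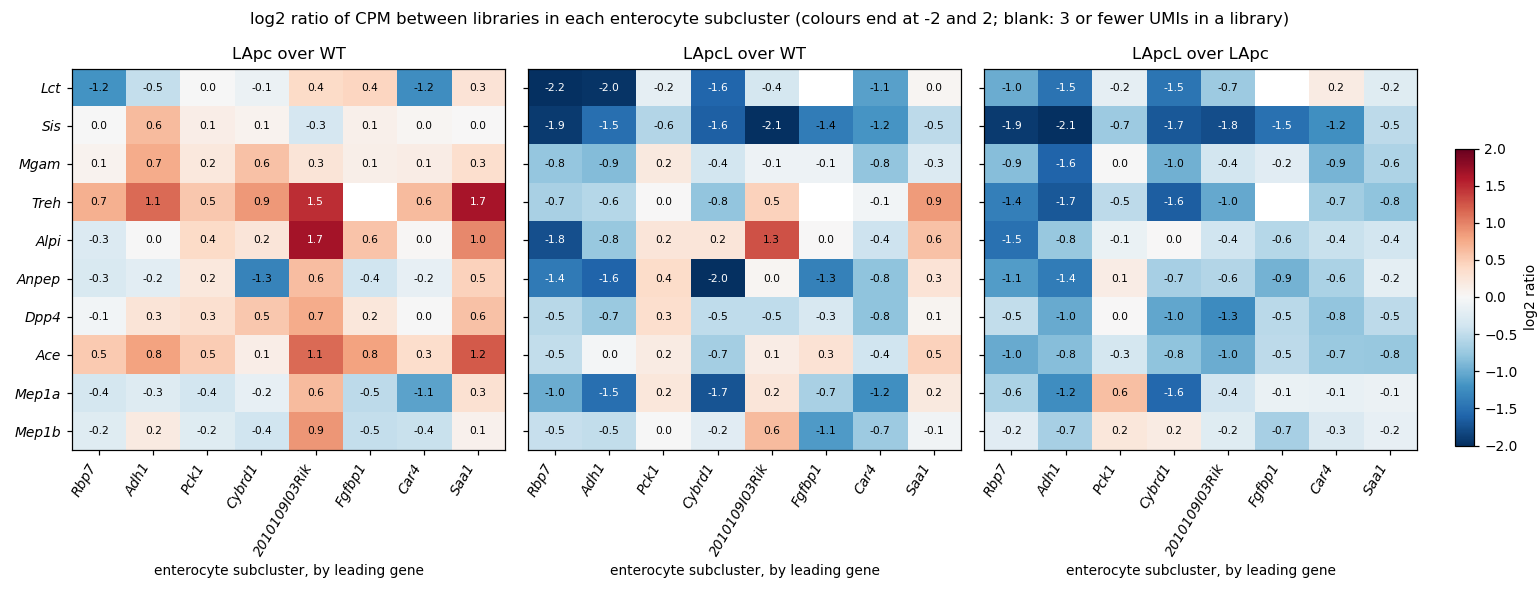
Log2 ratio of each enzyme between libraries in the 8 enterocyte subclusters, named by leading gene; colours end at -2 and 2 and a blank marks 3 or fewer UMIs in a library. The *Sis* row is below 0 in all 8 columns for both comparisons of *LApcL*, from -2.15 to -0.52, whereas the *Alpi* row holds both signs.

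Other genes of the brush border were read in the same cells. Of 17 other brush border and villus hydrolases, 12 were at 10 CPM or more for *LApc* and WT (13 for *LApcL* and WT, 12 for *LApcL* and *LApc*), and only those are counted. Of these, 2 were 2-fold higher and 2 2-fold lower in *LApc* than in WT, of which *Tmprss15*, the enteropeptidase that activates trypsinogen, was highest at 1.88 and the phosphatase gene *Alppl2* lowest at -2.02. For *LApcL* over WT these counts were 3 and 1, with the same genes at the ends at 1.78 and -1.70, and for *LApcL* over *LApc* 2 and 1, with *Plb1*, a phospholipase of the brush border, at 1.1997 and *Ggt1*, gamma-glutamyltransferase, at -1.08. None of the 12 structural genes of the brush border, such as the villin gene *Vil1*, passed 2-fold in any of the 3 comparisons. *Cdhr2*, a cadherin that links microvilli, was highest at 0.49 for *LApc* over WT, and *Pls1*, plastin of the microvillus core, lowest at -0.45 for *LApcL* over WT.

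Of 14 transcription factors known from enterocytes, 12 were at 10 CPM or more, and 1 of these passed 2-fold in enterocyte-like cells: *Klf4*, at 1.19 for *LApc* over WT, with 59.5 CPM in WT, 136 for *LApc* and 104 CPM for *LApcL*. *Prdm1*, below 10 CPM and not counted, had 2.23, 5.58 and 5.94 CPM. None of the 12 was 2-fold lower in any of the 3 comparisons. For *LApcL* over WT *Elf3* was lowest at -0.36, and for *LApcL* over *LApc* the ends were *Klf5*, at 0.73, and *Klf4*, at -0.38. Of the 6 villus tip genes, of which 5 were at 10 CPM or more, 4, 2 and 0 were 2-fold higher in the 3 comparisons, in the order given, and 0, 0 and 1 were 2-fold lower, the last being *Apoa4* at -1.06. Of the 6 base genes, 2, 2 and 0 were 2-fold higher and 0, 1 and 1 lower, *Il18* being lowest for *LApcL* over WT at -1.22. The shares of all genes past 2-fold given above apply to these lists.

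Outside the enterocytes the enzymes were low but not evenly so. Goblet-like cells summed to 293, 320 and 195 CPM over the 10 genes, and enteroendocrine-like cells to 825, 968 and 544 CPM. In thinned enteroendocrine-like cells *Sis* was seen in 48.9%, 53.8% and 43.6%, far above the share in goblet-like cells. The *Clca3b*-led Wnt/TA-like cluster had 168, 214 and 113 CPM of *Mgam*, which was seen in 39.0%, 45.6% and 25.5% of thinned cells, against 18.5%, 23.3% and 14.01% of goblet-like cells. The *Clu*-led Wnt/TA-like cluster, 3 cells in WT, 1264 in *LApc* and 8725 in *LApcL*, summed to 255 CPM in *LApc* and 133 CPM in *LApcL*, below the goblet-like level of the same library in both.

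Over 32 combinations of cluster and library, and among 4993 genes at 50 CPM or more in any of them, the genes most like an enzyme were ranked by Pearson's r of log2(CPM + 10). Clusters of 1 library share depth and free RNA, and the 32 points are no replicates. For *Lct* they were *Asah2* (0.97) and *Ephx2* (0.97), for *Sis* *Dpyd* (0.96) and *Erich4* (0.95), and for *Treh* *Cyp3a25* (0.98) and *Leap2* (0.97). For *Alpi* they were *Mttp* and *Rdh7*, for *Dpp4* *Itpk1* and *Amn*, for *Ace* *Gda* and *Asah2*, and for *Mep1a* *Naaladl1* and *Slc51b*. Among the 10 themselves r was highest for *Anpep* with *Mep1b* (0.98) and *Treh* with *Ace* (0.98) and lowest for *Lct* with *Mep1a* (0.67).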

How the data were processed

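Droplet 3′ single-cell libraries of EpCAM+ small intestinal cells were quantified by the authors with Cell Ranger 2.1.1 on the mm10 reference, and the deposited values were raw UMI counts per gene and barcode, without normalization. The methods named more than 1 kit version without tying them to libraries, and 1 mouse stood behind each group.

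Cells in the 1% tails of detected genes or with over 20% mitochondrial UMIs were left out. Doublets were scored with Scrublet (scanpy 1.11.5, Python 3.11.15) and removed at the expected rate, 1022 (WT), 1134 (*LApc*) and 2325 (*LApcL*) cells, since its automatic limit marked 2065, 4 and 755. Kept cells were integrated by canonical correlation in Seurat 5.3.0 (R 4.3.3; 20 components, 20 neighbours, Louvain resolution 0.2, subclusters 0.3). The 63 member and list genes other than *Apoa4* were left out of the clustering features. The fixed markers of the classes, *Apoa4* among them, were not left out. A class was named where 3 or more of its fixed markers were raised. UMIs were summed per class and library. CPM carry exact Poisson intervals, ratios exact conditional binomial intervals and shares exact Clopper-Pearson intervals, all at 95% and for counting error only, since PCR and capture error are not in them. A member or gene counted as past 2-fold at an absolute log2 ratio of 1, among genes at 10 CPM or more in a library compared. Shares of cells were taken after thinning to 3000 UMIs. There were no tests, as each group is 1 library. Intervals and ratios were tested on simulated Poisson and binomial counts, the error that they assume. These counts hold no spread between cells, mice or libraries, so the test cannot speak to it. Named were all 10 members, the ends of each gene list per comparison, and the 2 genes most like each member, which are not reported here for *Mgam*, *Anpep* and *Mep1b*. Members and lists were chosen with earlier results of these data known. Promoter windows and gene positions came from RefSeq and GENCODE on GRCm38. Scaling, doublets, mitochondrial limit, resolution, features, cell weighting, depth, free RNA and subcluster mix were varied one at a time.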

Additional observations from a re-analysis of the deposited data

Results flagged for a closer look

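In 3 instances a member moved opposite ways in enterocyte-like and ileal enterocyte-like cells under the same comparison, with both counting intervals clear of 0, and the difference itself was not tested because each library is 1 sample. *Sis* had a log2 ratio of *LApc* over WT of 0.25 (0.23 to 0.28) in enterocyte-like and -0.18 (-0.23 to -0.13) in ileal cells. *Treh* had a log2 ratio of *LApcL* over WT of -0.29 (-0.41 to -0.17) in enterocyte-like and 0.69 (0.30 to 1.08) in ileal cells, where it rested on 165 UMIs in WT and 87 in *LApcL* and turned to -0.064 with doublets kept. *Anpep* had a log2 ratio of *LApc* over WT of -0.032 in enterocyte-like and 0.046 in ileal cells, and both values changed sign with median-of-ratios scaling.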

How the results depend on the processing

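Values are log2 ratios of the summed level of the 10 genes, for *LApc* over WT, *LApcL* over WT and *LApcL* over *LApc* in that order, where not stated otherwise. In enterocyte-like cells they were 0.21, -0.50 and -0.71 and kept their direction under all 10 alternatives. Median-of-ratios scaling gave 0.25, -0.58 and -0.83. Thinning gave 0.24, -0.37 and -0.61, equal weight of cells 0.29, -0.34 and -0.63, doublets kept 0.12, -0.45 and -0.57, a 10% mitochondrial limit 0.059, -0.60 and -0.66, and an equal subcluster mix 0.18, -0.33 and -0.51. With doublets kept the enterocyte-like class was only an *Apoa4*-led cluster of 1186, 2051 and 939 cells, without a separate *Reg1*-led cluster. Its values are therefore not from the same set of cells. A total without ribosomal protein and mitochondrial genes gave -0.41 and -0.62 for the latter 2 comparisons, and member and list genes allowed as features -0.45 and -0.67. Resolution 0.4 gave 0.18 for the first.

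In ileal cells the values were 0.01, -0.28 and -0.29. They became -0.064, -0.48 and -0.42 with median-of-ratios scaling, 0.036, -0.12 and -0.16 with thinning, -0.049, -0.83 and -0.78 with doublets kept, 0.25, -0.14 and -0.39 with an equal mix, and 0.086, -0.12 and -0.20 without ribosomal protein and mitochondrial genes. Equal weight of cells gave 0.20 and -0.12 for the first 2, a 10% mitochondrial limit -0.21 for the first and -0.075 for the last, resolution 0.4 -0.22 and -0.24 for the latter 2, and member and list genes as features -0.36 and -0.38 for the same.

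The count of members past 2-fold in enterocyte-like cells, 0, 1 and 2, was 1 for *LApcL* over *LApc* with the 10% limit and with an equal mix, and the same elsewhere. Members rising at each step of the villus score fell from 4 to 0 with the added score, and the 1 member lower at the top stayed 1. Without a filter on low values, 26.0%, 26.1% and 27.2% of all genes were past 2-fold, against 4.26%, 3.76% and 4.22% with it.

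Single members whose interval excluded 0 changed sign as follows. In enterocyte-like cells, for *LApc* over WT, *Anpep* was 0.014 with median-of-ratios scaling and 0.039 with equal weight of cells, and *Lct* 0.095 with equal weight and 0.0055 with thinning. For *LApcL* over WT, *Dpp4* was 0.00061 and *Ace* 0.057 with an equal mix. In ileal cells, for *LApc* over WT, *Anpep* was -0.026 with median-of-ratios scaling, -0.11 with doublets kept and -0.25 with the 10% limit, *Mgam* -0.010 with the 10% limit, and *Mep1a* 0.13 with equal weight and 0.11 with an equal mix. For *LApcL* over WT, *Anpep* was 0.074 without ribosomal protein and mitochondrial genes, 0.11 with equal weight, 0.10 with thinning and 0.085 with an equal mix, *Mep1a* 0.012 without ribosomal protein and mitochondrial genes and 0.0075 with an equal mix, *Dpp4* 0.048 with thinning, and *Treh* -0.064 and *Alpi* -0.75 with doublets kept. For *LApcL* over *LApc*, *Anpep* was 0.17 with the 10% limit and 0.019 with thinning. Members whose interval held 0 also took both signs: *Alpi* for *LApcL* over WT (-0.20 to 0.24) and *Mep1a* for *LApcL* over *LApc* (-0.20 to 0.31) in enterocyte-like cells, and, in ileal cells, *Lct* in the 3 comparisons (-0.49 to 0.16, -0.96 to 0.29 and -0.46 to 0.25), *Ace* for *LApcL* over WT (-0.17 to 0.39), and *Mep1a* (-0.44 to 0.28) and *Mep1b* (-0.42 to 0.20) for *LApcL* over *LApc*. The causes were not tested.

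No paired analysis was possible because each group is 1 library. No alternative leaves out a replicate for the same reason. Counting error is small at these depths, and the spread between mice, which it does not hold, is unknown.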

Other observations

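The *Saa1*-led ileal subcluster and the *Pck1*-led subcluster held the highest levels of 9 of the 10 enzymes, but of different ones. In the *Saa1*-led ileal subcluster *Mep1a* measured 530.5, 652 and 604 CPM in the 3 libraries, while it had 120.1, 92.7 and 141 CPM in the *Pck1*-led subcluster. *Lct* ran the other way, with 70.5, 85.2 and 72.1 CPM in the *Saa1*-led and 1120, 1117 and 984 CPM in the *Pck1*-led subcluster. *Sis* and *Mgam* were lower in *Saa1*-led than in *Pck1*-led cells by less, *Sis* by 1.44-, 1.57- and 1.37-fold in the 3 libraries.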
